A study of Nasonia vitripennis with 6 samples.

Results

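The Toll receptor genes of the parasitoid wasp Nasonia vitripennis described here are Nv-TollA (Nasvi2EG005329), the target of the Toll knockdown, and Nv-TollC (Nasvi2EG005298), a paralog expressed at the ventral side of the embryo. They were chosen by name from the study and make up 2 of the 20033 loci in the deposited table. Poly-A RNA was sequenced in 6 libraries from pools of embryos, each estimated at more than 1000, collected 4 to 7 h after egg lay. Female pupae had been injected, and their offspring were measured, which is called parental RNA interference (pRNAi). The Toll pRNAi group holds 2 libraries, titled TollA1611 and TollA2610, for which double-stranded RNAs (dsRNAs) against separate sections of the Toll gene were used. The BMP pRNAi group holds 1 library for the BMP ligand gene gbb1 (titled gbb11611) and 1 for the ligand gene dpp (titled dpp2610), so neither knockdown has a replicate of its own. The water group holds 2 libraries of offspring of water-injected mothers, titled h2o805 and h2o1704. Strain was not given in the sources used here.

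In Drosophila, Toll is a transmembrane receptor that is activated at the ventral side of the early embryo by the ligand Spätzle. The signal frees the NF-kB transcription factor Dorsal from its inhibitor Cactus, and nuclear Dorsal then turns on ventral genes such as twist and snail. BMP ligands such as Dpp pattern the opposite, dorsal side of the fly embryo.

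Both receptor genes lie on scaffold 8 of assembly 1.0 (annotation 2.0). The locus of Nv-TollC runs from position 462479 to 467154 and that of Nv-TollA from 740146 to 745386, so that 272992 bases separate the end of the first from the start of the second. Each locus was paired with 1 gene identifier. The libraries held between 22754267 and 30590172 fragments assigned to loci, and all 6 were used. Because the genes are paralogs, the fragments were checked for a split between loci. Those of Nv-TollC were whole numbers in 6 of 6 libraries (tolerance 0.001), and those of Nv-TollA in 0 of 6. The values of Nv-TollA thus include parts of fragments. Their distance from the nearest whole number (at most 0.435) is bounded, so it cannot show how many fragments were split. Nv-TollC held no such parts, so the counts show no split between the receptor genes. Which other locus shared fragments with Nv-TollA is not known.

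The first question was how far the knockdown lowered its target and what happened to the paralog. Nv-TollA was nearly lost in both Toll pRNAi libraries, with 1.23 FPKM (fragments scaled to transcript length and library depth) in TollA1611 and 4.92 FPKM in TollA2610, against 128 and 101 FPKM in water libraries h2o805 and h2o1704. These levels were 1.08% and 4.29% of the water mean. The targeted gene was therefore low in both libraries labelled as its knockdown, and in no other library.

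Nv-TollC, which was not the named target, fell as well. It had 0.398 and 0.919 FPKM in Toll pRNAi libraries TollA1611 and TollA2610, against 9.46 and 10.02 FPKM in water libraries h2o805 and h2o1704. Its Toll pRNAi levels were 4.08% and 9.44% of the water mean. For both genes the Toll pRNAi levels lay far below the water levels. In fragments, 51 and 104 were assigned to Nv-TollC after Toll pRNAi, against 1311 and 1118 in water, so its remaining level was measured from few fragments. In RNA of whole embryos, fewer cells that express Nv-TollC and less of its RNA per cell cannot be told apart. Whether the dsRNAs also acted directly on the RNA of this paralog was not tested.

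**Figure D1:**
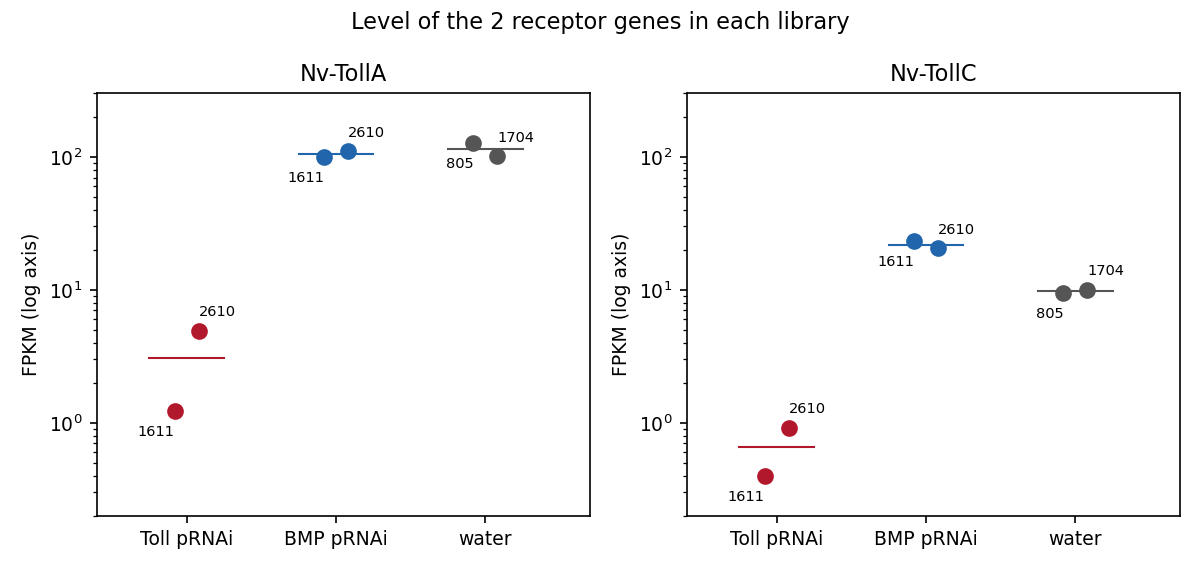
FPKM of Nv-TollA (left) and Nv-TollC (right) in each library on a log axis, by group, with the number at the end of the library's title beside each point and the group mean as a line (n = 2 libraries a group). Nv-TollA lies at 1.23 and 4.92 after Toll pRNAi and above 100 in the BMP pRNAi and water libraries, while Nv-TollC is lowest after Toll pRNAi and highest after BMP pRNAi.

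Per group, Nv-TollA averaged 3.08 ± 2.60 FPKM after Toll pRNAi and 115 ± 19.3 FPKM in water (SD, n = 2 each), a level 37.3-fold lower after the knockdown. Nv-TollC averaged 0.658 ± 0.369 FPKM after Toll pRNAi and 9.74 ± 0.391 FPKM in water (SD, n = 2 each), a level 14.8-fold lower. Tested on fragments with edgeR's quasi-likelihood test over 10241 loci, the log2 fold change of Nv-TollA was -5.14 (SE 0.49, adjusted p = 0.0026) and that of Nv-TollC was -3.88 (SE 0.26, adjusted p = 0.00038; SE, standard error). Both are among the 105 loci called lower, 1.03% of the loci tested, while 2.60% were called higher. By size of the decrease, Nv-TollA ranked 1 and Nv-TollC ranked 5 of the 10241 loci, and the median of all loci was 0.02. Nv-TollC is also on the list of ventral genes that the study chose on these samples, so its direction is not independent evidence.

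The call of Nv-TollA was lost with limma on log2(FPKM + 1) (adjusted p = 0.068), as was that of Nv-TollC (adjusted p = 0.062), where 0 loci were called lower and 1070 had an unadjusted p under 0.05. With TollA2610 left out, the log2 fold change was -6.37 for Nv-TollA and -4.58 for Nv-TollC, and with TollA1611 left out, it was -4.47 and -3.38. The fold of Nv-TollA thus depends on which dsRNA library is used. The water libraries carry other title numbers than the knockdown libraries, and the labels do not say what these numbers mark. The BMP pRNAi libraries, whose titles end in the same numbers as those of Toll pRNAi, had 100.5 and 110 FPKM of Nv-TollA and 23.2 and 20.5 FPKM of Nv-TollC. Whether a batch has a part in the fall after Toll pRNAi was not tested.

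The second comparison asked whether the receptor genes respond to loss of BMP signaling. Nv-TollA had 100.5 FPKM in the gbb1 library and 110 FPKM in the dpp library, against 128 and 101 FPKM in water libraries h2o805 and h2o1704. The groups overlapped, and the mean after BMP pRNAi was 91.8% of the mean in water. The log2 fold change was -0.15 (SE 0.40, edgeR adjusted p = 0.83), and it was 0.03 without water library h2o805. This SE draws on the spread within all groups, Toll pRNAi included. With only BMP pRNAi and water in the fit, the SE was 0.14 (log2 fold change -0.15, edgeR adjusted p = 0.51).

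Nv-TollC was higher in both BMP libraries. It had 23.2 FPKM in the gbb1 library and 20.5 FPKM in the dpp library, against 9.46 and 10.02 FPKM in water libraries h2o805 and h2o1704. The mean was 2.24-fold higher after BMP pRNAi (21.9 ± 1.85 FPKM) than in water (9.74 ± 0.391 FPKM; SD, n = 2 each). The log2 fold change was 1.14 (SE 0.20, edgeR adjusted p = 0.020), ranked 51 among the most raised. With only BMP pRNAi and water in the fit it was also 1.14 (SE 0.10, edgeR adjusted p = 0.0032). Of the 10241 loci, 2.06% were called higher and 3.49% lower in this comparison. The size of the increase kept between 1.04 and 1.24 with any 1 library left out, but the call did not. It was lost without water library h2o805 (1.10, adjusted p = 0.18) and without water library h2o1704 (1.19, adjusted p = 0.084), with DESeq2 (1.13, adjusted p = 0.069) and with limma on log2(FPKM + 1) (1.09, adjusted p = 0.095). The water libraries carry other title numbers, whose meaning the labels do not give. If the numbers mark a batch, that batch and the BMP knockdown cannot be told apart in this comparison.

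Toll pRNAi and BMP pRNAi were also compared with each other, without the water libraries in the contrast. In mean FPKM, Toll pRNAi libraries held 34.2-fold less Nv-TollA than BMP pRNAi libraries, a log2 fold change of -4.99 in fragments (SE 0.49, edgeR adjusted p = 0.00067). Nv-TollC was 33.2-fold lower, with a log2 fold change of -5.02 (SE 0.26, edgeR adjusted p = 1.9e-05). They ranked 5 and 4 among the most lowered loci, where 1.06% of loci were called lower and 5.83% higher. The decrease of Nv-TollC was thus larger against BMP pRNAi than against water, while that of Nv-TollA was about as large in both comparisons, which share the Toll pRNAi libraries. With TollA2610 left out the log2 fold change was -6.22 for Nv-TollA and -5.73 for Nv-TollC, and with TollA1611 left out it was -4.32 and -4.53. The call of Nv-TollA was lost with limma on unfiltered log2(FPKM + 1) (adjusted p = 0.084).

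**Figure D2:**
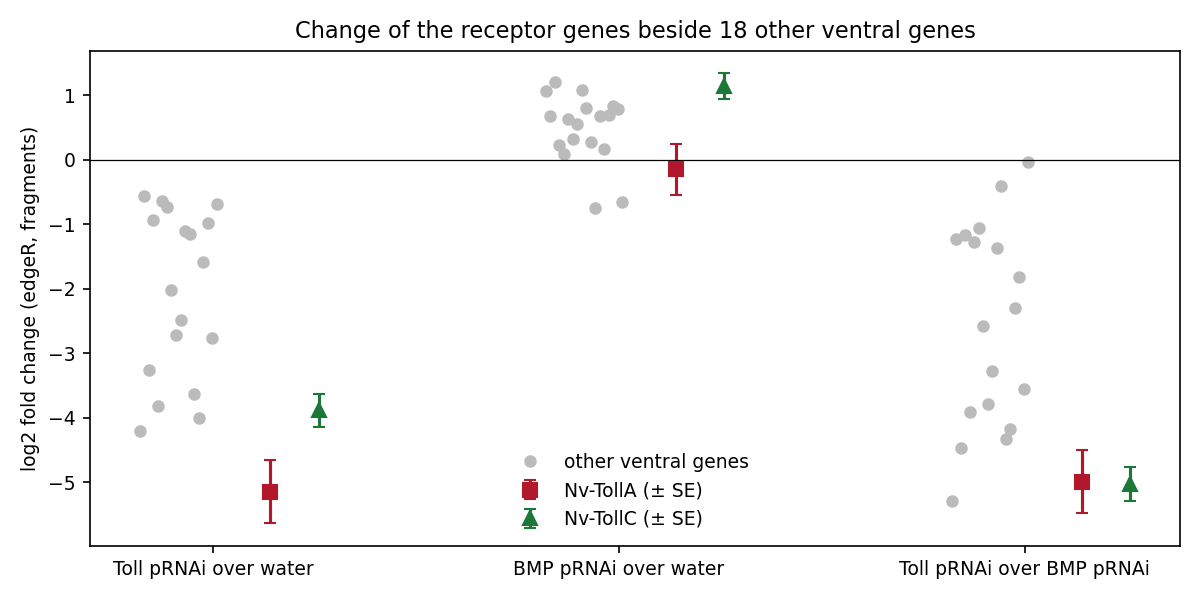
Log2 fold changes in fragments (edgeR) of Nv-TollA (square) and Nv-TollC (triangle), with their standard errors, and of 18 other ventral genes (grey points, drawn side by side) in the 3 comparisons. Nv-TollA stands at -5.14, -0.15 and -4.99 and Nv-TollC at -3.88, 1.14 and -5.02 in the order of the axis.

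The balance of the receptors within a library follows from these values. Nv-TollC took 22.9% of the fragments of both genes in Toll pRNAi library TollA1611 (95% Clopper-Pearson interval 17.5 to 29.0) and 15.5% in TollA2610 (12.8 to 18.4). After BMP pRNAi it took 19.1% in the gbb1 library (18.5 to 19.7) and 15.8% in the dpp library (15.3 to 16.4). In water it took 6.98% in library h2o805 (6.62 to 7.35) and 9.13% in library h2o1704 (8.63 to 9.66). The share was higher in all 4 knockdown libraries than in both water libraries, with a fall of both genes in one knockdown and a higher Nv-TollC level in the other. Per transcript length, Nv-TollA was still the more abundant gene everywhere: its FPKM was 3.10 and 5.35 times that of Nv-TollC after Toll pRNAi, 4.34 (gbb1) and 5.36 (dpp) times after BMP pRNAi, and 13.6 and 10.1 times in water. The intervals cover counting error only. With 2 libraries a group an exact two-sided permutation test cannot go below p = 0.333, so none was run on the shares.

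**Figure D3:**
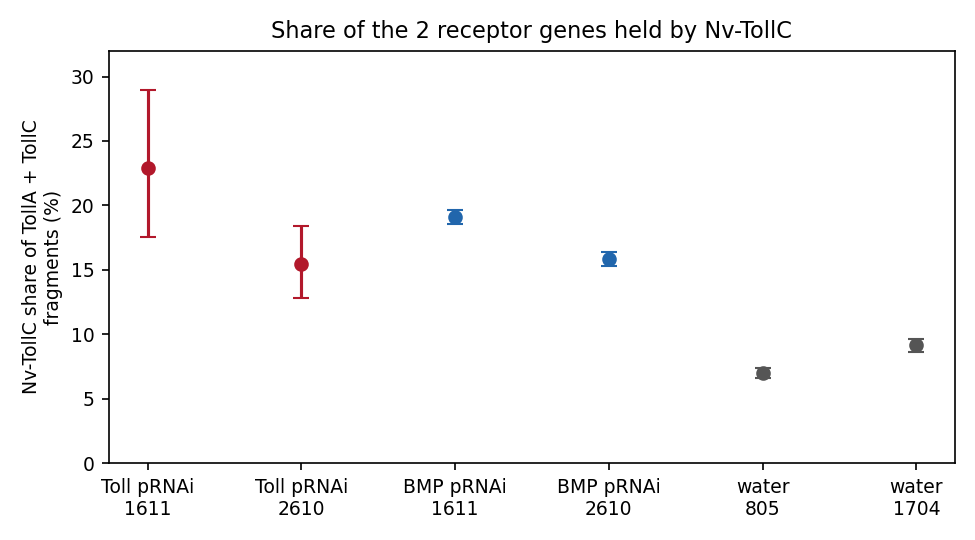
Share (%) of the fragments of both receptor genes that was assigned to Nv-TollC in each library, with 95% Clopper-Pearson intervals for counting error. The water libraries lie at 6.98% and 9.13%, below the Toll pRNAi and BMP pRNAi libraries, which lie between 15.5% and 22.9%.

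The Toll pRNAi libraries differed from each other in the level of both genes. Scaled to library size, Nv-TollA was 3.73-fold higher in TollA2610 than in TollA1611 (95% interval for counting error 3.14 to 4.45), at 25.3 against 6.80 CPM (counts scaled to library size). Nv-TollC differed in the same direction, by 2.30-fold (1.63 to 3.29). Such gaps between pools can exceed counting error in any group. The gap between BMP libraries (gbb1 over dpp) was smaller, at 0.913-fold (0.893 to 0.934) for Nv-TollA and 1.15-fold (1.09 to 1.20) for Nv-TollC. Between the water libraries (h2o805 over h2o1704) it was 1.26-fold (1.24 to 1.30) for Nv-TollA and 0.944-fold (0.871 to 1.02) for Nv-TollC.

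On the log2 scale the gap between TollA2610 and TollA1611 was 1.89 for Nv-TollA, ranked 9 of 10241 loci, and 1.17 for Nv-TollC, ranked 44. The SD over all loci was 0.33, and 50.6% of loci were higher in TollA2610. Nv-twi (Nasvi2EG000292), the homolog of the mesoderm determinant twist, differed by 1.14, and Nv-croc (Nasvi2EG016079), the homolog of the forkhead gene crocodile, by 1.21. The value of Nv-croc rests on only 15 fragments in TollA1611 and 33 in TollA2610. The difference did not extend to every ventral gene. Of the 18 ventral genes other than Nv-TollC, 11 (61.1%) were higher in TollA2610, with a median of 0.14, and Nv-sna (Nasvi2EG019581), the homolog of the mesoderm gene snail, differed by 0.15. These are 1 library against 1, each with its own dsRNA, so the dsRNA and the pool of embryos cannot be told apart.

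**Figure D4:**
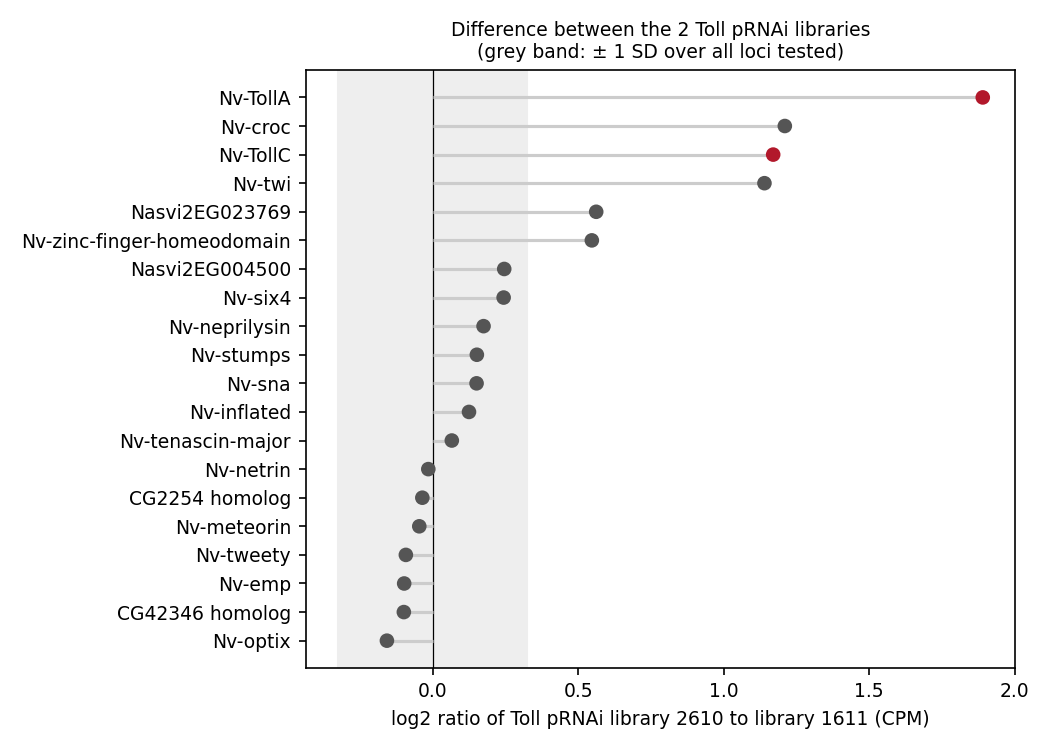
Log2 ratio in CPM of Toll pRNAi library TollA2610 to TollA1611 for the receptor genes (red) and 18 other ventral genes (grey), with a band of 1 SD over all loci tested (0.33). Nv-TollA (1.89), Nv-croc (1.21), Nv-TollC (1.17) and Nv-twi (1.14) lie farthest to the right.

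Nv-TollC was next set beside the other ventral genes. The study's table of expression patterns marks 21 genes as ventral, of which 19 were paired with a locus and passed the filter on low counts, 4 of them at loci that hold further genes. Without Nv-TollC, 16 of the other 18 fell after Toll pRNAi against water, 0 rose and 2 did not pass, where 1.03% of all loci tested were called lower and 2.60% higher. Their median log2 fold change was -1.81, beside 0.02 over all loci. After BMP pRNAi, 7 rose, 2 fell and 9 did not pass, where 2.06% of all loci were called higher and 3.49% lower, and their median was 0.65, beside 0.01 over all loci. Among the 19, Nv-TollC was the third most lowered after Toll pRNAi and the second most raised after BMP pRNAi. The study chose this list on these samples, so these counts are a description. A gene that shares the late edge domain of Nv-TollC, the CG2254 homolog (Nasvi2EG005603), had smaller differences. The study also places its expression in the presumptive serosa, a second domain that whole-embryo RNA does not separate. It had 10.5 and 10.4 FPKM after Toll pRNAi, 21.9 (gbb1) and 25.6 (dpp) FPKM after BMP pRNAi, and 18.06 and 18.04 FPKM in water. Its log2 fold change was -0.74 after Toll pRNAi (edgeR adjusted p = 0.015) and 0.32 after BMP pRNAi (edgeR adjusted p = 0.071).

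The genes with the pattern most like that of each receptor were taken from 424 loci that were paired with 1 identifier and passed the filter. Likeness was the root mean square difference in log2 CPM over the 6 libraries, each gene centred on its water mean. Nv-TollC was closest to Nv-twi (0.19), while the median over all candidates was 2.58. Nv-twi had 1.33 and 2.93 FPKM after Toll pRNAi, 87.8 (gbb1) and 79.0 (dpp) FPKM after BMP pRNAi, and 37.0 and 40.3 FPKM in water libraries h2o805 and h2o1704. Nv-twi and Nv-TollC thus shared the order of the groups and the higher level in Toll pRNAi library TollA2610. Next to Nv-twi came Nasvi2EG000293 (0.47), the homeobox gene Nv-six4 (Nasvi2EG004372, 0.56), Nv-croc (0.56) and Nasvi2EG004500 (0.70). Nasvi2EG000293 rests on 2 and 1 fragments in the Toll pRNAi libraries.

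Nv-TollA had no such close neighbour among the 424 candidates, which are only a part of the 10241 loci tested. Its nearest genes were Nv-croc (0.86), Nv-twi (0.997), Nasvi2EG004500 (1.05), Nv-TollC (1.15) and Nasvi2EG000293 (1.34), while the median over all candidates was 3.30. Nv-croc had 0.251 and 0.623 FPKM after Toll pRNAi, 7.64 (gbb1) and 7.90 (dpp) FPKM after BMP pRNAi, and 6.77 and 6.79 FPKM in water. After BMP pRNAi against water its log2 fold change was 0.17 (edgeR adjusted p = 0.59), of the other sign than that of Nv-TollA (-0.15), and neither passed the test. With log2(FPKM + 0.1) in place of log2 CPM, 4 of the 5 nearest genes were shared for each receptor. These likenesses are descriptions over 6 libraries that share the same group structure. Nv-TollA is itself the target of the Toll dsRNAs, so its likeness to ventral genes does not show how or where it is expressed.

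Of the genes beside the receptors, 2 were paired with an identifier within 100000 bases or between them. Only 1799 of the 20033 loci were paired, so other genes in this stretch could not be seen. Nasvi2EG005296 ends 55 bases before the start of Nv-TollC (459619 to 462424 on scaffold 8). It had 3 and 5 fragments after Toll pRNAi, 111 (gbb1) and 45 (dpp) after BMP pRNAi, and 35 and 35 in water. Its fold changes had the signs of those of Nv-TollC, at a much lower level: the log2 fold change was -3.02 after Toll pRNAi (SE 0.62, edgeR adjusted p = 0.040) and 0.88 after BMP pRNAi (SE 0.40, edgeR adjusted p = 0.18). Whether its fragments come from a transcript of its own or from one that runs into Nv-TollC cannot be told apart in values per locus. Nasvi2EG005321 ends 33800 bases before Nv-TollA (699223 to 706346). It had 16.7 and 40.1 FPKM in Toll pRNAi libraries TollA1611 and TollA2610, 17.8 (gbb1) and 10.1 (dpp) FPKM after BMP pRNAi, and 12.2 and 12.7 FPKM in water. It passed the test against water after neither Toll pRNAi (1.14, edgeR adjusted p = 0.13) nor BMP pRNAi (0.13, edgeR adjusted p = 0.85).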

How the data were processed

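The authors aligned the reads with TopHat2 2.0.3 to assembly 1.0 with annotation 2.0 and ran Cuffdiff (Cufflinks 2.0.2). The table they deposited gives an expected count of fragments per locus and library, unscaled, and the FPKM that the authors' run computed, scaled for depth and transcript length. Replicates were matched to libraries by the order in the authors' Cuffdiff command. Expected counts, as whole numbers after rounding, were tested in edgeR 4.0.16 (R 4.3.3; quasi-likelihood, TMM, default filter on low counts) in 1 fit of all 6 libraries, and p was adjusted by Benjamini-Hochberg over 10241 loci, with a threshold of 0.05. The standard error (SE) was taken as the size of the log2 fold change over the square root of F. The scripts were tested on simulated data.

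Named genes were the receptors, the study's ventral genes (counts, with Nv-twi, Nv-sna and the CG2254 homolog by name), the 5 loci most like each receptor, and paired loci beside them. Of 21 names of Toll pathway genes searched, 1, toll, was paired with an identifier, and that is Nv-TollC. Only part of the table that pairs loci with identifiers was used here. The members and lists were chosen with earlier results of these data known. Nv-croc and Nasvi2EG005296 follow from these rules. Alternatives were DESeq2 1.42.0, RLE size factors in place of TMM, library totals, at least 10 fragments in every library, no filter, fits of 2 groups, limma 3.58.1 on log2(FPKM + 1) or log2(FPKM + 0.1), a block by title number and each library left out. Figures were drawn with matplotlib 3.10.9. The study counts the Toll dsRNAs as biological replicates of the Toll knockdown, and dpp and gbb1 as those of the BMP knockdown. Its water pools were collected independently. The spread within the knockdown groups therefore includes differences between dsRNAs or ligand genes.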

Additional observations from a re-analysis of the deposited data

How the results depend on the processing

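The log2 fold change of Nv-TollC between Toll pRNAi and BMP pRNAi passed the threshold in all 16 alternatives run. Against water, Nv-TollA after Toll pRNAi passed in 12 of 15 and did not with limma on log2(FPKM + 1) (-4.98, adjusted p = 0.068, and with no filter -4.98, adjusted p = 0.087) or on log2(FPKM + 0.1) (-5.46, adjusted p = 0.066). Nv-TollC after Toll pRNAi passed in 13 of 15 and did not with limma on log2(FPKM + 1) (-2.71, adjusted p = 0.062, and with no filter -2.71, adjusted p = 0.061). Nv-TollC after BMP pRNAi passed in 9 of 15. It did not with DESeq2 (1.13, adjusted p = 0.069), with limma on log2(FPKM + 1) (1.09, adjusted p = 0.095, and with no filter 1.09, adjusted p = 0.16), with limma on log2(FPKM + 0.1) (1.16, adjusted p = 0.15) or without either water library. Nv-TollA between Toll pRNAi and BMP pRNAi did not pass with limma when log2(FPKM + 1) was left unfiltered (-4.87, adjusted p = 0.084). Nv-TollA between BMP pRNAi and water did not pass in any, and its sign turned without water library h2o805 (0.029, adjusted p = 0.98). The cause of these changes was not tested.

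With each library left out in turn, the value of Nv-TollA lay between -6.37 and -4.47 for Toll pRNAi over water, between -0.31 and 0.03 for BMP pRNAi over water and between -6.22 and -4.32 for Toll pRNAi over BMP pRNAi. That of Nv-TollC lay between -4.58 and -3.38, between 1.04 and 1.24, and between -5.73 and -4.53 in the same comparisons. The counts of loci called, the background of these calls, moved far more. For Toll pRNAi over water they lay between 16 and 683 lower and between 3 and 695 higher, for BMP pRNAi over water between 84 and 1401 lower and between 6 and 1227 higher, and for Toll pRNAi over BMP pRNAi between 37 and 814 lower and between 180 and 1231 higher. The highest counts came without a BMP library and the lowest without a Toll or water library.

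For Toll pRNAi over water, loci called lower and higher were 338 and 459 with DESeq2, 705 and 533 with no filter, 620 and 723 with only those groups in the fit, 0 and 0 with limma on log2(FPKM + 1) (1070 and 1508 at an unadjusted p under 0.05), 10 and 33 with the same and no filter, and 15 and 5 with limma on log2(FPKM + 0.1). For BMP pRNAi over water they were 852 and 499 with DESeq2, 1217 and 836 with no filter, 136 and 26 with only those groups, 31 and 5 with limma on log2(FPKM + 1), 16 and 27 with the same and no filter, and 41 and 8 with limma on log2(FPKM + 0.1). Scaling by library totals gave 511 called higher. For Toll pRNAi over BMP pRNAi they were 605 and 1036 with no filter, 49 and 145 with limma on log2(FPKM + 1), 48 and 76 with the same and no filter, and 49 and 150 with limma on log2(FPKM + 0.1). DESeq2 gave 173 called lower.

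The Toll pRNAi and BMP pRNAi libraries share title numbers, whose meaning the labels do not give. After subtraction of group means, libraries with the same number correlated at 0.125 across 10241 loci, with only 2 pairs. With a replicate block by title number, fitted on those 4 libraries, Nv-TollA stood at -5.18 and Nv-TollC at -5.05, and 364 loci were called lower and 1005 higher. The level of Nv-TollC after Toll pRNAi rests on 51 and 104 fragments, which limits its precision.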
